A study of Mus musculus with 6 samples.

Results

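The measured CpGs in the promoters of Dazl, Ddx4 and Mael were mostly methylated in mouse kidney in every library. In the 5 germline genes Dazl, Ddx4, Sycp3, Mael and Tdrd1, 0 of 9 windows passed the test for a difference with 5AZA, against 1.55% of all windows, and 0 of 9 with ureteral obstruction, against 0.0501%, shares at which these counts say little about the genes in particular. The genes were chosen as ones that somatic tissues are known to keep silent by DNA methylation. Their CpG sites were those covered by at least 10 reads in all 6 libraries inside fixed mm9 spans: chr17:50416000-50436000 for Dazl (GeneID 13164), chr13:113386000-113446000 for Ddx4 (GeneID 13206), chr10:87920000-87940000 for Sycp3 (GeneID 20962), chr1:168129000-168172000 for Mael (GeneID 98558) and chr19:56898000-56947000 for Tdrd1 (GeneID 83561). That gave 133 sites of the 943307 shared by all libraries, namely 62 at Dazl, 16 at Ddx4, 10 at Sycp3, 26 at Mael and 19 at Tdrd1. In any library at all, 290 sites of these spans were seen.

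The libraries came from the kidney cortex and outer medulla of male wild type C57BL/6J mice, 2 libraries in each of 3 groups. In the 5AZA group the left ureter had been ligated for 7 days (unilateral ureteral obstruction) and 5AZA was injected into the peritoneum at 1 mg/kg per day. The name is not spelled out in the labels; it is used for azacytidine drugs, which inhibit DNA methyltransferases. In the saline group the same obstruction went with saline. Sham mice had surgery without ligation, where sham 1 was the control of the obstruction and sham 2 is labelled as the control of an ischemia and reperfusion experiment, with 48 h in its name. The comparisons ask what the drug did to DNA methylation in obstructed kidneys (5AZA against saline) and what obstruction did (saline against sham). Whether the 2 libraries of a group stand for separate mice is not labelled, and the p-values given rest only on how far such libraries lie apart, a technical spread perhaps. Methylation was read by reduced representation bisulfite sequencing, in which the enzyme MspI cuts at CCGG, short fragments are kept, and bisulfite then tells methylated from unmethylated cytosines. The files gave 37728517 to 76730132 covering reads per library, and the 133 sites had 3217 to 9374 reads per library, with 10 to 193 reads and a median of 45 per site and library. No RNA was measured, so whether the genes were silent was not measured either.

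Germline genes of this kind have CpG-rich promoters that become methylated in the embryo when the somatic lineages are set apart, and the methylation is kept afterwards by the maintenance methyltransferase DNMT1. Repressor complexes that bind E-box and E2F-type motifs in the promoters of many of them take part in setting this up. Germ cells lose the mark and express the genes, among them factors of meiosis and of the piRNA pathway, which protects the germline genome from transposons.

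The promoter sequences of the 3 genes whose promoters were measured are shown because they mark which CpGs carry the values that follow. Each runs 5′ to 3′ from 250 bases before to 50 bases after the annotated start, and capitals mark the CpGs covered by at least 10 reads in all 6 libraries. They are RefSeq sequences of build GRCm38.p6, from the minus strand in each case: chr17:50293571-50293870 for Dazl with 7 measured CpGs, chr13:112652261-112652560 for Ddx4 with 15, and chr1:166238695-166238994 for Mael with 16.
Dazl: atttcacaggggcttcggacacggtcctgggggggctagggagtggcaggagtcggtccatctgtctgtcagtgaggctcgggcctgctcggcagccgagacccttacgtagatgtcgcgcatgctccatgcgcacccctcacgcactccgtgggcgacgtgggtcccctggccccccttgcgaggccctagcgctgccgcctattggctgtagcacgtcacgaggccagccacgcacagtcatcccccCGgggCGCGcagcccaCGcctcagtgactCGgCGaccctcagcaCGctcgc
Ddx4: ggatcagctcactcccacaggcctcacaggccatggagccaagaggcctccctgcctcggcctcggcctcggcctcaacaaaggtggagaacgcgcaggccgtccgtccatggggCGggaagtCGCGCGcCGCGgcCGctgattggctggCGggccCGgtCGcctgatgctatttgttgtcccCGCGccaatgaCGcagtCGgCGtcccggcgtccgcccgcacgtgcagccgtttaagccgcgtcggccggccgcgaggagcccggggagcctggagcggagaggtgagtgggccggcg
Mael: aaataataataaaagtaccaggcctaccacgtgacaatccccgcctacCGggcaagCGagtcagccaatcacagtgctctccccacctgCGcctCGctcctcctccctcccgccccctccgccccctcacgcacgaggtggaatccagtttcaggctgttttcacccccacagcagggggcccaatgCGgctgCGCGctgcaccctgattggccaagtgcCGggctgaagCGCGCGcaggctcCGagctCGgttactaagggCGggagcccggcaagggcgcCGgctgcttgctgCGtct

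In these 300 bases Dazl had 28 CpGs, Ddx4 38, Mael 24, Tdrd1 25 and Sycp3 15, against a median of 7 over the RefSeq mouse promoters. The E-box CACGTG occurred, on either strand, in the promoters of Ddx4, Sycp3, Mael and Tdrd1 and not in that of Dazl, and 7.15% of the 32851 promoters in the table hold it. The E2F-type letters TCCCGC occurred on either strand in Ddx4, Sycp3 and Mael, against 20.0% of all promoters, and 1.99% hold both motifs. These matches are letters in a window and say nothing of binding. The E-box CpGs were not among the shared sites, while a TCCCGC match was measured in each of Ddx4 and Mael. In Ddx4 it lay on the reverse strand at -136 from the start and was methylated at 66.7 and 75.0% in the 5AZA libraries, 82.4 and 65.2% in the saline libraries and 67.6 and 85.7% in the sham libraries. In Mael the match on the reverse strand at +11 was methylated at 100% in both 5AZA libraries, 90.0 and 100% in the saline libraries and 92.9 and 100% in the sham libraries. Both motif CpGs were thus mostly methylated in every library, and the groups overlapped at each.

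To set these promoters against others, the CpG positions of each RefSeq promoter were matched to the CpG positions in the files, which placed 8637 genes, 7097 of them with at least 5 shared sites. The 5 genes were sought only in and just around their own spans, the others over a wider stretch. A promoter at 60% methylation or more was uncommon, with 83 of the 7097, or 1.17%, and Dazl, Ddx4 and Mael were 3 of these. CpGs inside CCGG, the cut site, read high almost everywhere in these libraries: in placed promoters under 20%, they had a median level of 72.4%, against 1.67% at the other CpGs of the same promoters. The submitters' protocol repairs the cut ends with methylated dCTP, and the part of that step in these values was not tested. Without CpGs in CCGG, 52 of 6611 promoters with at least 5 sites left stood at 60% or more (0.787%), and 98.6% were under 20%. The same measure was 93.7% over 6 sites for Dazl, 68.9% over 14 sites for Ddx4 and 86.7% over 13 sites for Mael. High methylation of these 3 promoters did not rest on the cut sites.

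**Figure D1:**
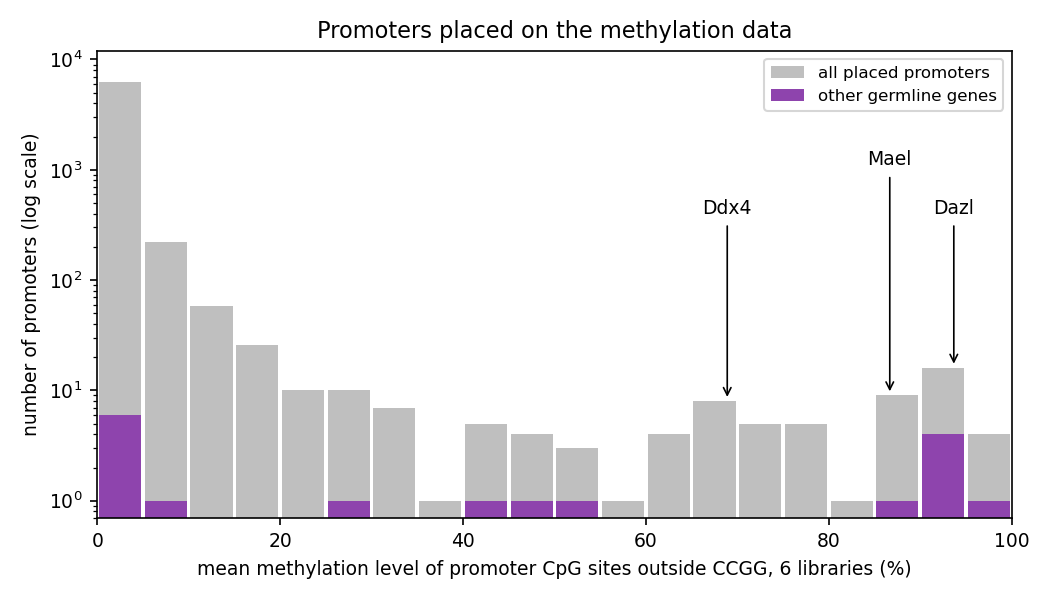
Number of placed promoters (log scale) by the mean methylation level of their CpG sites outside CCGG over the 6 libraries, in percent, for all 6611 placed promoters with at least 5 such sites (grey) and for the 17 other germline genes among them (purple). Arrows mark the 3 measured promoters, Dazl at 93.7%, Mael at 86.7% and Ddx4 at 68.9%, far from the bulk of promoters under 20%.

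Dazl encodes an RNA-binding protein that promotes translation in germ cells. Its 7 measured promoter sites all lie at or after the annotated start. Over them the level averaged 90.0 and 93.5% in the 5AZA libraries, 94.7 and 95.2% in the saline libraries and 95.4 and 97.5% in the sham libraries. The 5AZA libraries were the lowest of the 6 and the sham libraries the highest, with no overlap between groups. The promoter level differed by -3.23 percentage points in 5AZA against saline, and by -1.52 in saline against sham. Each comparison has 2 libraries against 2, for which an exact two-sided permutation test cannot go below p = 0.33, the value it gave for both. Without 5AZA 1 the Dazl difference between 5AZA and saline was -1.50 points and without 5AZA 2 it was -4.96, while that between saline and sham was -2.56 without sham 1 and -0.485 without sham 2. The 83 placed promoters at 60% or more, Dazl among them, had a median difference of -3.25 points for 5AZA against saline, within the range of -4.96 to -1.50, and 77 of them were lower with 5AZA. For saline against sham, the median of the same 83 was 1.13 points, with 58 positive and 25, as at Dazl, negative. In whole tissue, a change in the mix of cells and a change of methylation within cells cannot be told apart.

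The CpG with the highest level in the Dazl promoter lay at the annotated start, mm9 chr17:50432945, and the CpG with the lowest level 7 bases after it. The site at the start is inside a CCGG and was methylated in 30 of 30 and 47 of 48 reads in the 5AZA libraries, 59 of 59 and 55 of 57 in the saline libraries and 46 of 47 and 11 of 11 in the sham libraries. At the site 7 bases on, the levels were 83.3 and 83.3% in the 5AZA libraries, 79.7 and 86.0% in the saline libraries, and 91.5 and 91.7% in the sham libraries. The 95% Wilson interval of that site was 66.4 to 92.7% in 5AZA 1 and 67.7 to 88.0% in saline 1, so single sites resolve differences of several points poorly. These intervals take the reads of 1 library as independent and cover counting error only. Because polymerase chain reaction copies were not marked with molecular identifiers, the intervals may be too narrow even for that.

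Methylation of Dazl ended sharply inside the gene. From -617 to +472 bp of the start, all 29 shared sites had mean levels of 75.3 to 100%, and from +491 to +878 bp, 28 of 33 sites had levels of 0.994 to 20.6%. The first stretch has a gap of 492 bp without a shared site just before the start, where methylation was not measured. Only 19 bp lie between the last site of the first stretch and the first site of the second. The split was placed after the values were seen, and it describes them without a test. Over the 29 sites the level averaged 90.6 and 91.9% in the 5AZA libraries, 94.4 and 94.0% in the saline libraries and 94.9 and 94.7% in the sham libraries. Over the 28 low sites it averaged 5.13 and 6.61% in the 5AZA libraries, 5.93 and 4.98% in the saline libraries and 5.56 and 4.04% in the sham libraries. The methylated side was thus lower in both 5AZA libraries by a mean of -2.91 points. Over the 28 low sites the groups overlapped and differed by 0.412 points. With a median level of 3.34%, those sites had almost no room to fall, so the sides cannot be compared in this. The Dazl site with the most negative difference between 5AZA and saline lay on the methylated side at +418 bp, with 82.4 and 77.8% in the 5AZA libraries, 91.3 and 90.9% in the saline libraries and 89.4 and 92.3% in the sham libraries. On the low side, the site at +708 bp had 6.52 and 13.0% in the 5AZA libraries, 15.3 and 24.3% in the saline libraries and 5.88 and 0% in the sham libraries, the largest positive difference of saline against sham at Dazl.

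The other 5 sites of the downstream stretch, at +501 to +878 bp and 44 to 144 bp apart, read high among the low sites there. They averaged 80.5 and 72.9% in the 5AZA libraries, 76.6 and 76.4% in the saline libraries and 76.0 and 74.3% in the sham libraries. These averages are near the 72.4% median of CCGG sites in unmethylated promoters, while the single sites ran from 62.1 to 94.4% over the 6 libraries. The site at +501 bp had about as many reads as both its neighbours together, as a cut-site CpG could. The sequence of this stretch was not used here, so whether the 5 sites lie in CCGG was not tested.

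**Figure D2:**
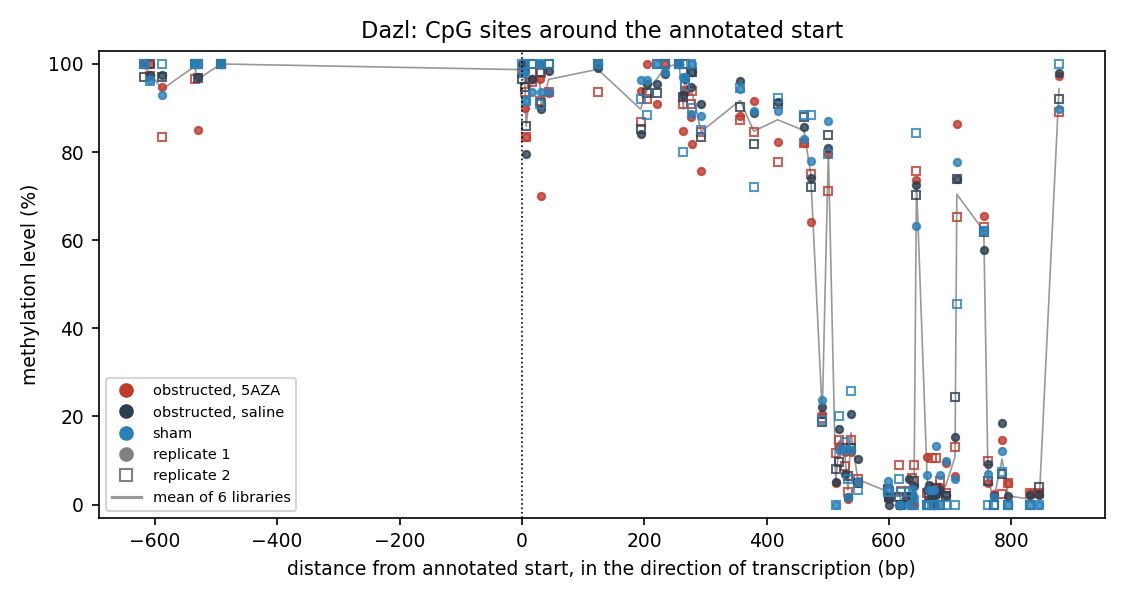
Methylation level in percent of each shared Dazl CpG site against its distance from the annotated start in bp, for the 5AZA, saline and sham libraries (1 point per library). The sites up to +472 bp lie at 75.3% or more on average, and 28 of the 33 sites from +491 bp on at 20.6% or less, in all groups.

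Ddx4 encodes the germ cell RNA helicase known as Vasa. Its promoter stood lower and was more mixed than those of Dazl and Mael, with 15 sites that averaged 71.6 and 73.7% in the 5AZA libraries, 73.7 and 68.6% in the saline libraries and 61.1 and 70.9% in the sham libraries. The 5AZA and saline libraries overlapped, with a difference of 1.48 points and an exact two-sided permutation p of 1.0 over 4 libraries. Leaving out 1 library of these groups moved that difference between -1.10 points, without saline 2, and 4.06, without saline 1. The difference between saline and sham was 5.15 points with overlapping libraries (exact permutation p = 0.67), and it was 0.243 without sham 1 and 10.1 without sham 2, so its size rests on single sham libraries. Of the 16 shared sites in the Ddx4 span, 12 lay between 50 and 80% and 4 at 80% or more, and none was below 50%.

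Neighbouring CpGs of the Ddx4 promoter differed widely in level. At -49 bp the levels were 86.2 and 93.1% in the 5AZA libraries, 92.2 and 81.5% in the saline libraries and 86.7 and 100% in the sham libraries, the highest of the promoter on average. At -66 bp, the lowest on average, 5AZA gave 41 of 65 and 23 of 29 methylated reads, or 63.1 and 79.3%. The saline libraries had 42 of 77 and 9 of 27 there, or 54.5 and 33.3%, and the sham libraries 6 of 15 and 6 of 10. Both 5AZA libraries were above both saline libraries, by a mean of 27.3 points, the largest positive difference of any Ddx4 site, which is named for that size and has no test. Only 2 bp away, at -64 bp, 5AZA libraries read 58.5 and 55.2% and saline libraries 66.2 and 63.0%, which is the most negative difference of any Ddx4 site, with a mean of -7.78 points. At the same site the sham libraries had 3 of 15 and 8 of 10 methylated reads, with Wilson intervals of 7.05 to 45.2% and 49.0 to 94.3%. The largest positive difference of saline against sham was at -46 bp, where saline libraries stood at 76.6 and 75.0% and sham libraries at 33.3 and 54.5% of 15 and 11 reads.

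Sham 2, the library with the fewest reads, limited how much of Ddx4 could be compared. It had 16 sites with at least 10 reads in the Ddx4 span, against 33 to 37 in the other libraries. Taking sites covered at least 10 times in the 5AZA and saline libraries alone gave 33 Ddx4 sites. They averaged 76.4 and 81.5% in the 5AZA libraries and 78.9 and 77.7% in the saline libraries, a difference of 0.667 points with overlap.

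**Figure D3:**
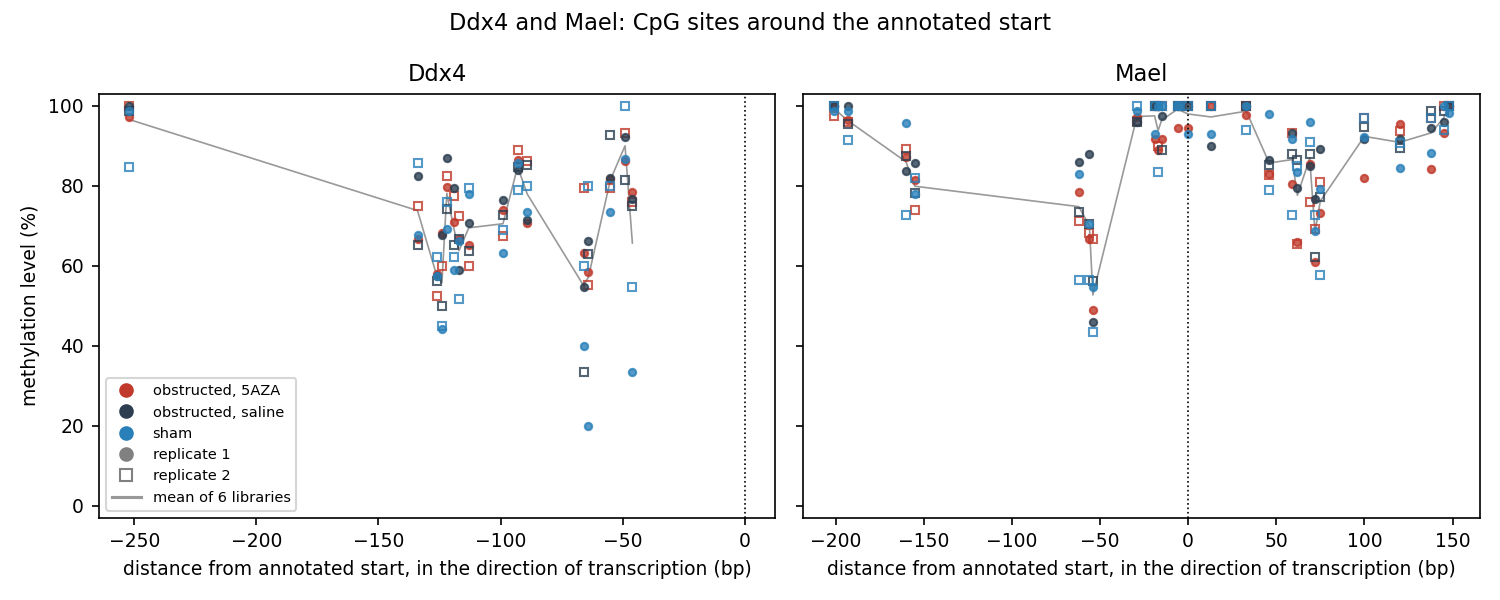
Methylation level in percent of each shared site of Ddx4 and Mael against its distance from the annotated start in bp, for the 5AZA, saline and sham libraries (1 point per library). Ddx4 sites between -134 and -46 bp spread over 20.0 to 100%, while most Mael sites stand above 80%, apart from sites such as the one at -54 bp.

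Sycp3 encodes a protein of the axial elements of the synaptonemal complex, which holds paired chromosomes in meiosis. Its RefSeq promoter could not be placed on the data, so its 10 shared sites, at mm9 chr10:87922370-87922923, carry no distance from the start. They averaged 88.4 and 82.4% in the 5AZA libraries, 93.6 and 89.0% in the saline libraries and 91.1 and 90.3% in the sham libraries. Both 5AZA libraries were below the other 4, by a mean of -5.85 points against saline (exact two-sided permutation p = 0.33 over 4 libraries). That difference was -8.87 without 5AZA 1, -2.83 without 5AZA 2 and -3.55 without saline 1. Saline and sham overlapped, with a difference of 0.611 points, which was -1.69 without saline 1, 2.92 without saline 2 and 8.30 at a coverage minimum of 5, which takes in 16 sites. The lowest Sycp3 site, 87922417, also differed most between 5AZA and saline, with 67.7 and 64.0% in the 5AZA libraries, 89.7 and 75.3% in the saline libraries and 75.9 and 73.0% in the sham libraries. That site is 1 of the 2 in the 5 genes whose reads came near the sum of those at both neighbours, as at a cut-site CpG. The highest Sycp3 site, 87922923, was methylated in all 30 and all 54 reads of the 5AZA libraries.

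Mael encodes maelstrom, a protein of the piRNA pathway. Its 16 promoter sites averaged 87.4 and 89.4% in the 5AZA libraries, 91.2 and 89.4% in the saline libraries and 90.8 and 84.9% in the sham libraries. The groups overlapped in both comparisons, with differences of -1.91 points for 5AZA against saline and 2.44 points for saline against sham (exact permutation p = 0.67 for each). The difference with 5AZA was -0.869 without 5AZA 1 and -1.03 without saline 1, and that between saline and sham was 5.41 without sham 1 and -0.534 without sham 2. Over all 26 Mael sites, from mm9 chr1:168168727 to 168169076, the 5AZA libraries at 85.3 and 88.6% were below the saline libraries at 90.6 and 89.0%, by a mean of -2.85 points, which was -1.23 without 5AZA 1 and -4.48 without 5AZA 2. The sham libraries, at 89.8 and 85.2%, spanned much of that range.

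Most of Mael was close to full methylation, with 19 of 26 sites at 80% or more, yet single CpGs in it were not. The site at -54 bp, the lowest, read 49.0 and 66.7% in the 5AZA libraries, 46.0 and 56.3% in the saline libraries and 54.7 and 43.5% in the sham libraries, an intermediate level in all 6. At -201 bp, the highest promoter site and one inside a CCGG, the levels were 97.3 to 100%. The most negative Mael difference between 5AZA and saline lay at +62 bp, with 65.9 and 65.5% in the 5AZA libraries, 79.5 and 86.5% in the saline libraries and 83.3 and 84.8% in the sham libraries. The 5AZA libraries were below the other 4 there, by a mean of -17.3 points against saline.

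Tdrd1 encodes a Tudor domain protein that binds PIWI proteins in the germ granules of the piRNA pathway. Its promoter was placed by 9 CpGs but had no shared site, with 0 to 22 reads in all per library, and its level was not detectable at this depth. The 19 shared sites lay from mm9 chr19:56899678 to 56937903, between -1087 and +37138 bp of the annotated start. They averaged 77.1 and 77.0% in the 5AZA libraries, 82.8 and 83.6% in the saline libraries and 79.8 and 74.3% in the sham libraries. Both saline libraries stood above the other 4. The mean difference was -6.15 points for 5AZA against saline and 6.20 points for saline against sham, with an exact two-sided permutation p of 0.33, the smallest possible, for each. The difference with 5AZA was -5.74 to -6.55 when 1 library was left out and -3.85 at a coverage minimum of 20. The difference between saline and sham was 3.47 without sham 2, 3.35 at a coverage minimum of 5 and 9.72 with reads pooled over sites. The comparisons share the saline libraries.

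The single sites of Tdrd1 differed in this. At 56902998, 2233 bp after the start and the lowest Tdrd1 site, the levels were 37.5 and 49.7% in the 5AZA libraries, 62.5 and 51.2% in the saline libraries and 42.3 and 26.8% in the sham libraries. At 56903142, 45.2 and 49.3% in the 5AZA libraries stood below 59.5 and 58.6% in the saline libraries, while the sham libraries had 46.5 and 26.8%. The most negative Tdrd1 difference between 5AZA and saline lay at 56937903. It had 13 of 27 and 23 of 38 methylated reads in the 5AZA libraries, 15 of 16 and 20 of 27 in the saline libraries and 13 of 19 and 7 of 11 in the sham libraries. Both saline libraries were above both 5AZA and both sham libraries at each of these 3 sites, and the last rests on few reads. They are named for their low level or their large differences. At 56901011, the site with the largest positive difference between 5AZA and saline, all groups overlapped, with 59.3 and 41.9% in the 5AZA libraries, 39.1 and 56.2% in the saline libraries and 19 of 53 and 12 of 24 methylated reads in the sham libraries. The sites at 56899678 and 56899850, before the start, were much higher, at 97.2 to 97.6% and 97.4 to 98.0% in the 5AZA libraries and at 98.5 to 100% in the saline libraries. Both 5AZA libraries were below both saline libraries at these sites too. The sham libraries were at 100% at 56899850, and their mean over these sites with reads pooled was 97.0%.

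**Figure D4:**
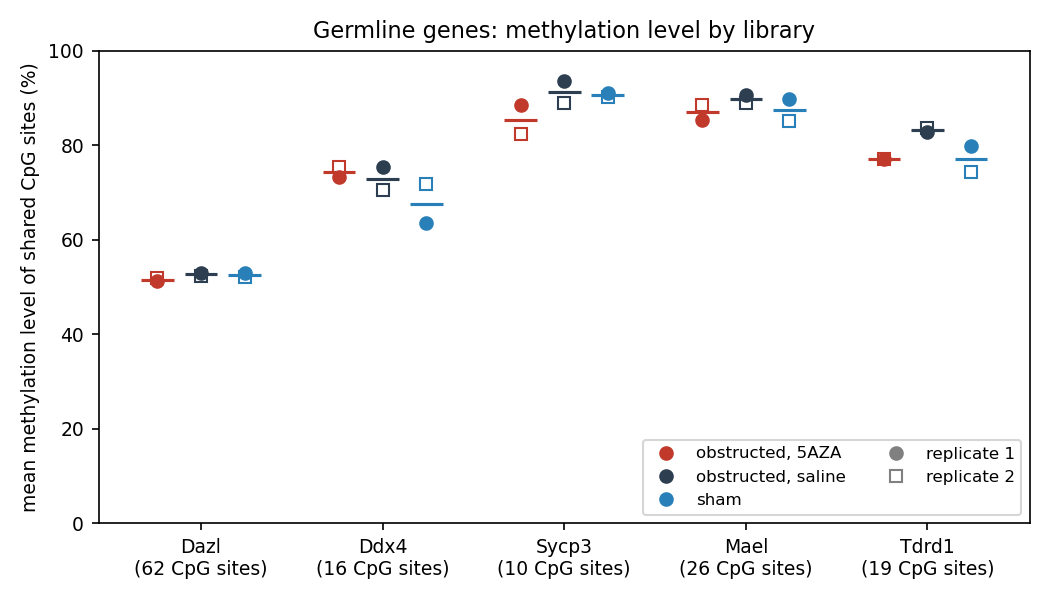
Mean methylation level in percent of the shared CpG sites of each germline gene, 1 point per library, with 5AZA, saline and sham from left to right and a line at each group's mean. Group means at Dazl are 51.5% with 5AZA, 52.7% with saline and 52.6% in sham, and the saline libraries at 82.8 and 83.6% stand above the others at Tdrd1.

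Windows of 1 kb with at least 3 shared sites were tested with edgeR's quasi-likelihood test on methylated and unmethylated reads, with Benjamini-Hochberg adjustment over all 89813 windows. For 5AZA against saline, 0 of the 9 windows of the germline genes passed an adjusted p of 0.05, against 1.55% of all windows, of which 1390 were lower and 4 higher. At an unadjusted p under 0.05, 3 of the 9 were lower and none higher, against 22.8% and 0.411% of all windows. By limma on log2 ratios, 0 of the 9 passed and 3 had an unadjusted p under 0.05. The median difference was -2.52 points over the 9 windows and -2.70 over all windows. For saline against sham, 0 of 9 passed, against 0.0501% of all windows, and none had an unadjusted p under 0.05 in edgeR, against 10.4% of all windows. The limma counts were 0 and 1 of the 9, against 0 and 9756 of all 89813 windows.

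The 3 windows with the smallest edgeR p for 5AZA against saline were in Tdrd1, Sycp3 and Mael. The Tdrd1 window at mm9 chr19:56937001-56938000, with 3 sites and 32 to 114 reads, had pooled levels of 60.5 and 66.7% in the 5AZA libraries, 85.4 and 79.0% in the saline libraries and 71.9 and 62.5% in the sham libraries. It differed by -18.6 points (edgeR Benjamini-Hochberg adjusted p = 0.0967), with both 5AZA libraries below both saline libraries. In the Sycp3 window at chr10:87922001-87923000, the levels were 86.7 and 84.4% in the 5AZA libraries, 93.1 and 89.4% in the saline libraries and 91.0 and 90.8% in the sham libraries. It differed by -5.68 points (edgeR adjusted p = 0.0981). The Mael window at chr1:168168001-168169000, with 22 sites, had 83.8 and 85.5% in the 5AZA libraries and 90.0 and 86.8% in the saline libraries, a difference of -3.73 points (edgeR adjusted p = 0.164), which was -2.14 without saline 1. Without the first saline library, none of the 9 windows had an unadjusted p under 0.05.

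The other windows had larger edgeR p-values. The Dazl promoter window, chr17:50432001-50433000 with 56 sites, crosses the methylated and unmethylated stretches, and its pooled level was 35.1 and 49.8% in the 5AZA libraries and 40.3 and 49.9% in the saline libraries, a difference of -2.65 points (edgeR adjusted p = 0.734). The Dazl window before it, chr17:50433001-50434000 with 6 sites, had 96.9 and 96.0% in the 5AZA libraries and 98.8 and 98.4% in the saline libraries (-2.14 points, edgeR adjusted p = 0.245). In an alternative run with windows shifted by 500 bp, chr17:50432501-50433500 held 24 sites, all of the methylated side of Dazl. That shifted window differed by -2.77 points (edgeR adjusted p = 0.0868). The Ddx4 window gave a difference of 1.65 points (edgeR adjusted p = 0.779), the second Mael window -1.17 (adjusted p = 0.809), and the Tdrd1 windows at 56900001 and 56916001 -2.52 and -2.20 (adjusted p = 0.730 and 0.586). For saline against sham, the Tdrd1 window at 56937001 differed by 15.0 points (edgeR adjusted p = 0.505), the Ddx4 window by 4.03 (adjusted p = 0.585) and the first Mael window by 3.01 (adjusted p = 0.553). The remaining 6 windows were within -1.70 and 2.04 points of 0.

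**Figure D5:**
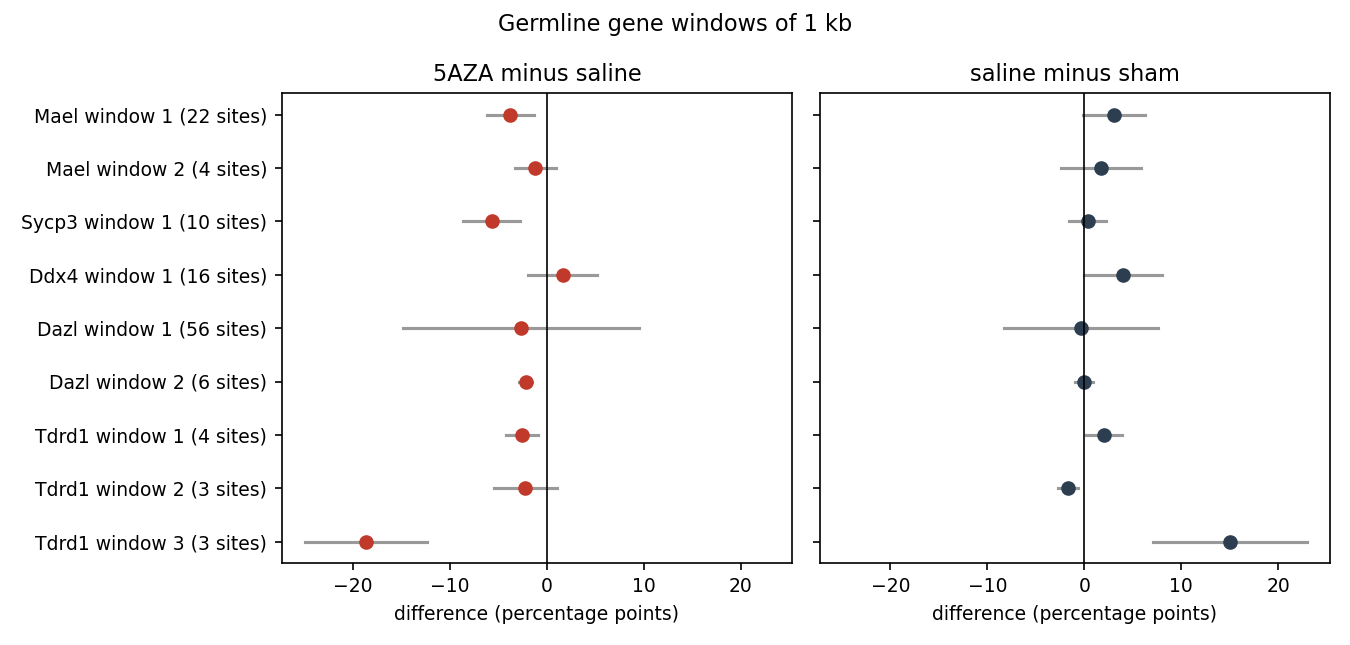
Difference in pooled methylation level, in percentage points, of the 9 germline gene windows of 1 kb, for 5AZA minus saline (left) and saline minus sham (right). Points are differences of group means and lines span the 4 differences between single libraries. The Tdrd1 window at the bottom stands at -18.6 and 15.0 points, and no window passed the test in either comparison.

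Site by site, 34 of the 133 sites had both 5AZA libraries below both saline libraries, which is 25.6%, against 26.0% of all shared sites, and 14 had them above, which is 10.5%, against 8.71%. Tdrd1 gave 10 of its 19 sites lower with 5AZA, Sycp3 4 of 10, Mael 4 of 26, Dazl 14 of 62 and Ddx4 2 of 16. For saline against sham, 19 sites had both saline libraries above both sham libraries, or 14.3%, against 22.4% of all shared sites, and 15 had them below, or 11.3%, against 7.99%. Of these, 8 of the higher sites were in Tdrd1, 5 in Dazl, 5 in Ddx4 and 1 in Sycp3, while 8 of the lower ones were in Dazl. Sites within a gene are read partly from the same fragments and are not replicates. Among all shared sites at 60% or more, the mean difference was -3.24 points for 5AZA against saline and 1.76 points for saline against sham. For 5AZA against saline, the Tdrd1 gene mean, at -6.15 points, was more negative than -3.24 whichever library was left out. That mean takes in all 19 Tdrd1 sites, 3 of them between 20 and 50%. Sycp3, between -8.87 and -2.83 when 1 library was left out, and Mael, between -4.48 and -1.23, lay on both sides of -3.24. Leaving out libraries gives no interval, and how far other genes' means spread around -3.24 was not tested. The methylated side of Dazl stood at -2.91 points, and the Ddx4 gene mean at 1.35.

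A wider list of 65 germline genes was searched with the wider reach used for all other promoters, and 18 had a placed promoter with at least 5 shared sites. Of the 17 that kept 5 sites or more outside CCGG, 6 stood at 60% or more, 4 between 20 and 60% and 7 under 20%. The highly methylated ones were Asz1 at 95.3%, Fkbp6 at 92.4%, Hormad1 at 85.3%, Sohlh2 at 90.9%, Tex101 at 92.3% and Slc25a31 at 92.1%. Asz1 and Fkbp6 act in the piRNA pathway, Hormad1 binds meiotic chromosome axes, and Sohlh2 is a transcription factor of germ cells. Other germline genes had unmethylated promoters outside CCGG, such as the piRNA pathway gene Tdrd5 at 1.82%, the meiosis gene Mei4 at 2.31% and the helicase gene Ddx25 at 3.77%. These genes are named after their values were seen.

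None of the 18 promoter windows of that list passed edgeR's test in either comparison, against 1.55% of all windows for 5AZA against saline and 0.0501% for saline against sham. At an unadjusted p under 0.05, 4 were lower with 5AZA, those of Henmt1, Hormad1, Tex101 and Slc25a31, against 22.8% of all windows, and 2 were higher in saline than in sham, those of Terb1 and Ddx25, against 8.7%. These 6 are named after their values were seen. The promoter means that differed most with 5AZA were those of Henmt1, which encodes a piRNA methyltransferase, at -8.42 points, the meiosis gene Hormad2 at -5.74 and Fkbp6 at -4.11. The Henmt1 promoter averaged 26.8 and 28.9% in the 5AZA libraries, 34.0 and 38.6% in the saline libraries and 40.8 and 31.7% in the sham libraries. The windows of these 3 had edgeR adjusted p-values of 0.122, 0.512 and 0.311.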

How the data were processed

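Reduced representation bisulfite libraries were made with MspI, end repair with methylated dCTP, and inserts of 40 to 120 and 120 to 220 bp, per the labels' protocols. The submitters' processing notes name Bowtie and build mm9, with no version. How reads were trimmed and methylation called is not stated in these sources. The authors deposited, per CpG site and library, counts of covering and of methylated reads and their fraction, in files with no header; the fraction equals methylated over covering counts within 0.0005 in every line. Positions are printed 1-based.

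Levels are methylated over covering reads at sites with at least 10 reads in all 6 libraries, averaged over a gene's sites, and groups were compared by exact permutation tests, two-sided. Counts summed over 1 kb windows with at least 3 sites, whose centre lies in a gene's span, went into the quasi-likelihood test of edgeR 4.0.16 under R 4.3.3 (functions glmQLFit, glmQLFTest, an intercept per library, a group effect on methylated counts, 1 common dispersion over all 6 libraries) with Benjamini-Hochberg adjustment over all windows and a threshold of 0.05. limma 3.58.1 was an alternative. RefSeq promoters (GRCm38.p6) were placed on mm9 by matching CpG positions: every file site in the 300 bases had to fall on a CpG, with at least 7 matches and at least 2 more than the next best place within 4000000 bases. For the 5 genes, places were sought only in the gene's own span and just beyond it, a far smaller search. Of the 65 listed genes, 55 were in the promoter table and 24 were placed. Candidate cut-site (fragment-end) CpGs had total reads within 5% of the sum of the reads at both neighbours. Each neighbour lay within 220 bp and held at least 10% of the site's reads. Sites at 30% or more in windows of at least 10 shared sites with a median level under 5% were also taken.

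All 5 genes and their windows were named, with the sites that were highest or lowest in a promoter or differed most, and, of the wider list, the 3 promoters with the largest 5AZA difference; no window there passed the test, which would also have been named. The other genes of that list were named after their values were seen, for their level or an unadjusted p under 0.05. The genes, lists and tests were chosen with earlier results of these data known. Depth per library is given with the report, and Wilson intervals at 95% cover counting error only.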

Additional observations from a re-analysis of the deposited data

How the results depend on the processing

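No window of the 5 genes passed the adjusted threshold under any alternative run, for either comparison, so these alternatives changed no call there. Over them, the edgeR or limma adjusted p for 5AZA against saline ran from 0.0951 to 0.322 at the Tdrd1 window of 56937001, from 0.0773 to 0.445 at the Sycp3 window and from 0.120 to 0.644 at the first Mael window. Over all windows, calls for 5AZA against saline were 1394, and 856 at a coverage minimum of 20, 3788 with windows of 1 site or more, 166 with only the 4 libraries compared, and 0 with limma and 0 without candidate fragment-end sites, where 18379 and 17872 had an unadjusted p under 0.05. Leaving out 1 library gave 0 to 1149 calls, with 0 without either saline library (14114 without the first and 15541 without the second had an unadjusted p under 0.05) and 2 without the second 5AZA library. For saline against sham, 45 calls became 323 with windows of 1 site or more, 72 with the 4 libraries, and 0 with limma and 0 without fragment-end sites (9756 and 8453 at an unadjusted p under 0.05), and 0 to 72 without 1 library. The cause of these shifts was not tested.

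With the replicate number as a block, calls for 5AZA against saline were 2263. Same-numbered libraries deviated together with a correlation of only 0.0762 over windows and share only a number; gene means are the same with the block by construction. No paired analysis was possible for saline against sham because the labels give sham 2 no number.

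Gene and promoter mean differences kept their sign in 137 of 148 comparisons with alternatives. For saline against sham, Dazl became -0.0674 at a coverage minimum of 20 and -1.58 with reads pooled, and Sycp3 became -0.212 without candidate fragment-end sites. For 5AZA against saline, Ddx4 became -0.964 at a coverage minimum of 5. Leaving out 1 library gave saline minus sham ranges of -0.377 to 0.579 at Dazl, -1.69 to 2.92 at Sycp3, -0.0166 to 4.58 at Mael, -0.534 to 5.41 at the Mael promoter, 0.243 to 10.1 at the Ddx4 promoter and 1.14 to 9.47 over Ddx4, and 5AZA minus saline ranges of -1.12 to 3.81 at Ddx4 and -1.10 to 4.06 at its promoter. Without CpGs in CCGG, an alternative chosen after seeing the data, the promoter differences for 5AZA minus saline were -3.89 at Dazl, 1.35 at Ddx4 and -2.21 at Mael.

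Windows changed sign in 14 of 237 such comparisons. For saline minus sham, the Sycp3 window gave -0.401 without fragment-end sites, the Dazl promoter window 0.0468 and 0.202 at coverage minimums of 5 and 20, and the other Dazl window 0.312 at 5. Without 1 library, they ranged from -1.51 to 2.19 at Sycp3, -5.09 to 4.49 and -0.735 to 0.679 at the Dazl windows, and -1.36 to 4.77 at the second Mael window. For 5AZA minus saline the ranges were -0.950 to 4.25 at Ddx4, -10.0 to 4.71 at the Dazl promoter window and -4.55 to 0.150 at the Tdrd1 window of 56916001.

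Depth limits single sites. Sham 2 had the fewest sites with at least 10 reads at Ddx4, Sycp3 and Mael, 5AZA 2 at Dazl and sham 1 at Tdrd1. With 2 libraries in each group, gene means could not reach a p under 0.33 at all, and sham 2 comes from another experiment than sham 1.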
